A study of Mus musculus with 2 samples.

Results

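The genes described here handle zinc, iron and copper: the metallothioneins, the SLC30A and SLC39A families of zinc transporters, the metal-responsive transcription factor Mtf1, and genes of iron and copper uptake, storage and export. They were chosen by gene symbol among rows of type mRNA, and 44 such genes were found among 35529 rows, 22388 of them mRNA. Their values in the 2 libraries were in view when they were chosen, so every difference below is a description and none was tested. The samples were colon tissue of C57BL/6 wild-type mice. The control library, called normal colon below, came from normal colon of mice that received neither azoxymethane (AOM) nor dextran sodium sulfate (DSS). The other library, simply the adenomas below, came from adenomas of the colon of mice after AOM/DSS, a regimen in which a chemical carcinogen is combined with an agent that damages the colonic epithelium. Each library was made from RNA combined from 6 mice and was sequenced once, so no value has a replicate and p-values are not given. The labels give no dose, age or time point.

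Metallothioneins are small cysteine-rich proteins that bind zinc and copper and buffer their free concentrations. SLC30A (ZnT) proteins move zinc out of the cytosol, into vesicles or out of the cell, while SLC39A (ZIP) proteins move it into the cytosol. Zinc in excess activates MTF1, which binds metal response elements in promoters such as those of Mt1, Mt2 and Slc30a1. Iron enters cells through the transferrin receptor or DMT1, is stored in ferritin and leaves through ferroportin, whose level at the membrane is lowered by the hormone hepcidin. Iron regulatory proteins bind a short hairpin, the iron-responsive element, in ferritin, ferroportin and transferrin receptor mRNAs.

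The metallothioneins Mt2, Mt3 and Mt4, the vesicular zinc transporter Slc30a2 and the zinc and manganese importer Slc39a8 were higher in the adenomas, while the iron export genes Heph and Slc40a1 and several zinc transporters were lower. Levels are RPKM, reads normalised to gene length and sequencing depth. The difference used for counting is log2((adenoma RPKM + 1)/(control RPKM + 1)), and only genes reaching 1 RPKM in 1 library or both were kept. Of the 44 members 37 passed this filter. Of these 6 were at least 2-fold higher in the adenomas (Mt4, Mt3, Mt2, Slc30a2, Slc39a8 and Hamp), 7 were at least 2-fold lower (Heph, Slc39a9, Slc39a5, Atp7a, Slc30a1, Slc39a14 and Slc40a1) and 24 lay between. Among 12910 mRNA genes past the filter, 10.4% passed 2-fold in the upward and 13.1% in the downward direction; over the 16517 genes of all types the shares were 14.0% and 11.0%. The same contrast was in view when the members were chosen, so nothing is read from their counts. With the adenoma library scaled by the median ratio over mRNA genes, log2 values at high RPKM rise by 0.21. Then 7 members were higher and 3 lower, beside 1798 and 1215 mRNA genes. With equal sums of RPKM, which lowers those log2 values by 0.40, 6 members were higher and 10 lower. Beside them stood 721 and 2961 mRNA genes, against 1346 and 1693 as deposited. The members' median was -0.26, against -0.17 over mRNA genes and -0.02 over all genes. Next to the threshold lay Fth1 at 0.997 and Slc30a4 at -0.97 on one side, and Slc40a1 at -1.08 and Slc39a14 at -1.09 on the other.

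**Figure D1:**
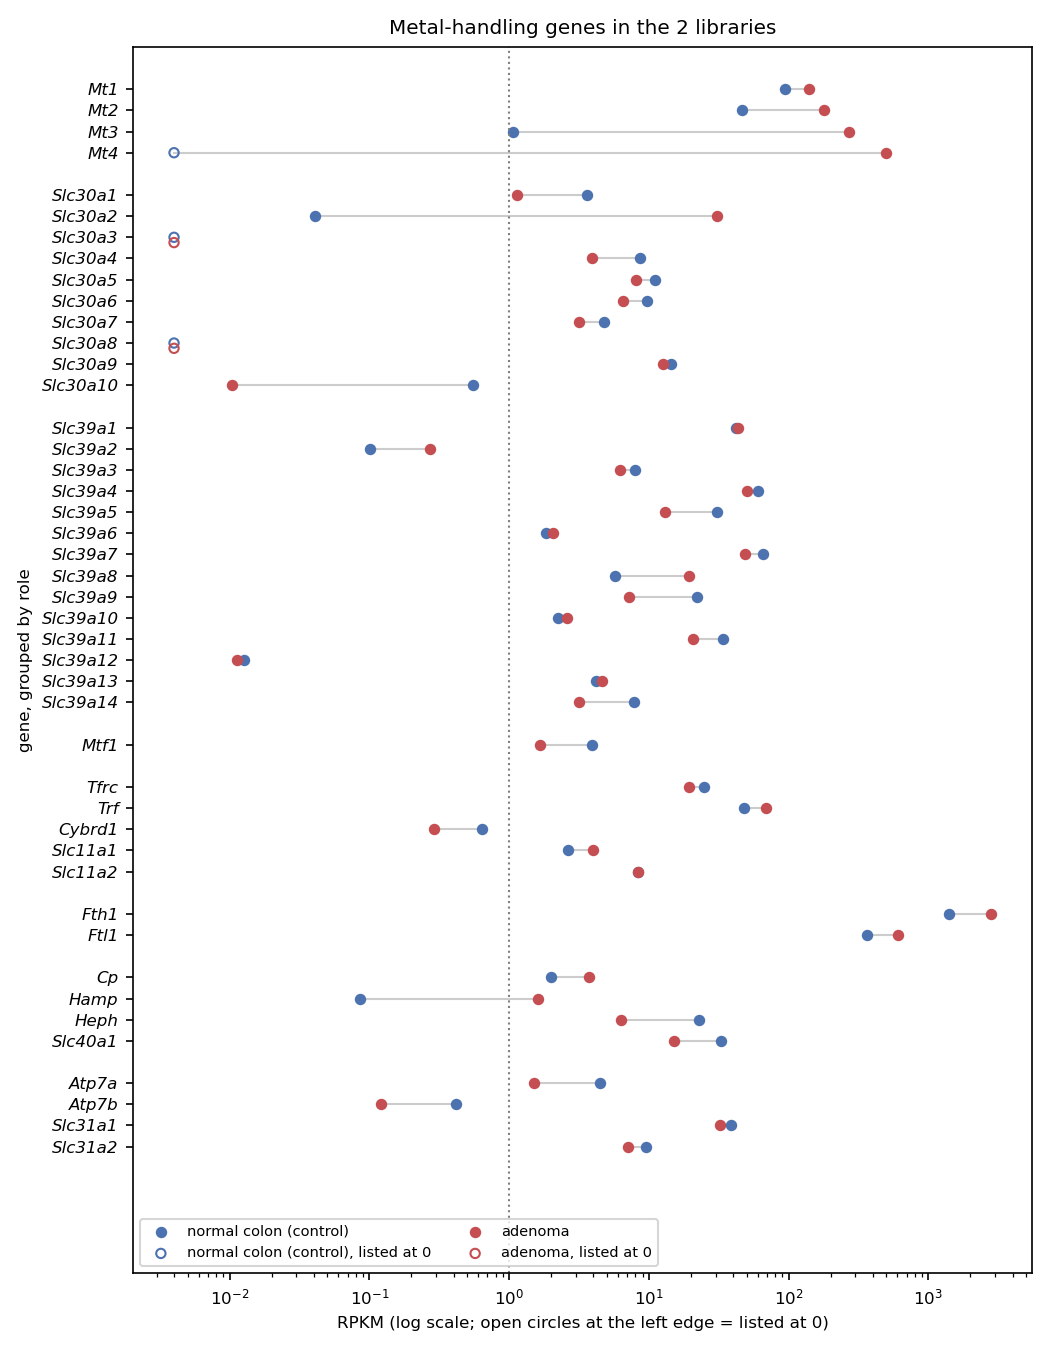
Level of each of the 44 members in the normal colon and adenoma libraries, in RPKM on a log axis, 1 point per library, grouped by role; the dotted line is the filter at 1 RPKM and open circles mark values listed at 0. Mt4 went from 0 in normal colon to 501 RPKM and Slc30a2 from 0.0409 to 30.5, and Slc30a10 lies lower in the adenomas by 53.3-fold.

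Transcript length moved with these differences. Among the 10% of mRNA genes with the shortest transcripts the median log2 was 0.85, and among the 10% with the longest -0.78. The 5 members past the filter under 1000 bases (Mt2, Mt3, Mt4, Hamp and Ftl1) were all higher in the adenomas, and of the 32 longer ones 11 were higher and 21 lower. A second value, called length-adjusted here, is therefore given where it matters. It subtracts the median trend over transcript length among mRNA genes and adds back the overall median log2 of those genes, which is below 0. The side of the 2-fold threshold on which Mt2 (0.88) and Slc39a9 (-1.06) fall depends on that added median. So does the negative sign of Ftl1 and Slc39a1 after adjustment. After that step 5 members were beyond 2-fold upward (Mt4, Mt3, Slc30a2, Slc39a8 and Cp) and 3 downward (Slc39a5, Heph and Slc39a9), beside 5.49% and 9.95% of mRNA genes. The part of transcript length in the members' differences was not tested beyond this.

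**Figure D2:**
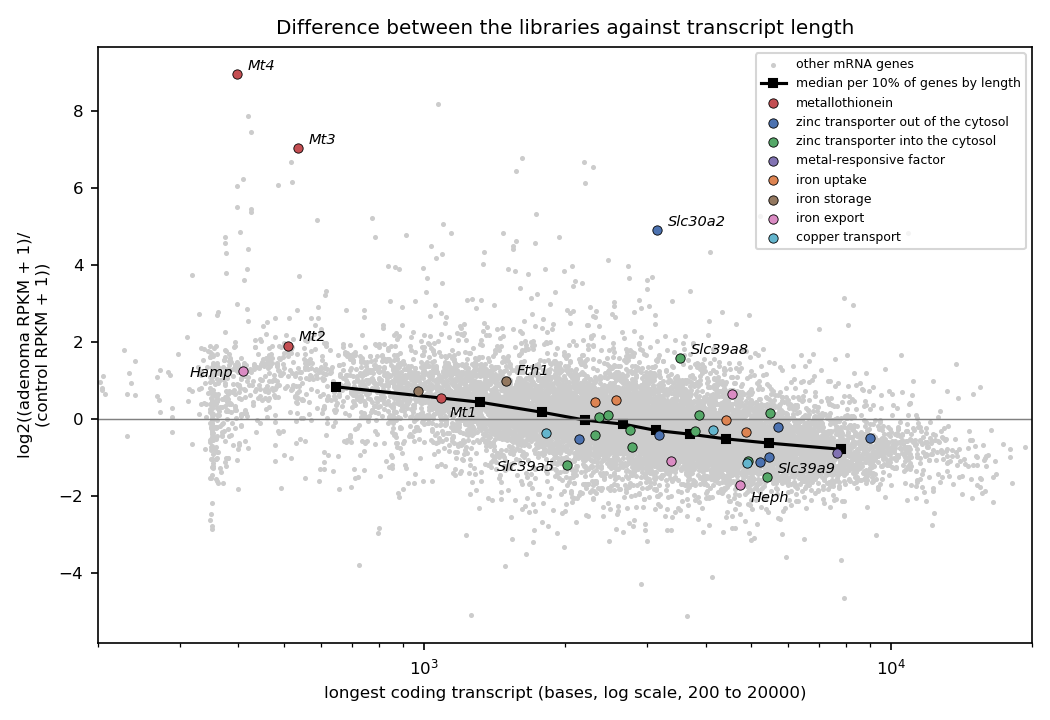
Difference between the libraries, as log2((adenoma RPKM + 1)/(control RPKM + 1)), against the longest coding transcript on a log axis from 200 to 20000 bases, for mRNA genes past the filter (grey, 1 point per gene), with the members coloured by role and the black line joining the median of each 10% of genes by length. The medians go from 0.85 to -0.78; Mt4, Mt3 and Slc30a2 lie far above the line at their lengths and Heph below it.

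The 4 metallothionein genes stand side by side on chromosome 8, all on the plus strand, in the order Mt4, Mt3, Mt2, Mt1. In GENCODE M21 (GRCm38) they span chr8:94137197-94139031, chr8:94152607-94154146, chr8:94172664-94173568 and chr8:94179082-94180327. The 250 bases before each RefSeq start are shown because Mt1 and Mt2 are the textbook targets of MTF1 and the 4 genes differed unequally. Capitals mark matches to the core of the metal response element, searched as TGCACNC and TGCGCNC on both strands.
Mt4, chr8:94136954-94137203, plus strand: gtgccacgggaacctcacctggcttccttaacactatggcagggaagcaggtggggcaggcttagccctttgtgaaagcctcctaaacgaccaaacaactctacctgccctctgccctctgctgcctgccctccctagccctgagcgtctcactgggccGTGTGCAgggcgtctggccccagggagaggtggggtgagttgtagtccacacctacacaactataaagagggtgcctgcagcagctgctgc
Mt3, chr8:94152357-94152606, plus strand: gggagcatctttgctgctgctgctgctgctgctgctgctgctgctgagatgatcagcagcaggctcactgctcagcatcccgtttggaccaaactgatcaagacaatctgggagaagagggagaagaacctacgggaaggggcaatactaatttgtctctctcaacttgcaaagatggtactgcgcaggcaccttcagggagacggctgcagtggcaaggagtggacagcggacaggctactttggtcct
Mt2, chr8:94172368-94172617, plus strand: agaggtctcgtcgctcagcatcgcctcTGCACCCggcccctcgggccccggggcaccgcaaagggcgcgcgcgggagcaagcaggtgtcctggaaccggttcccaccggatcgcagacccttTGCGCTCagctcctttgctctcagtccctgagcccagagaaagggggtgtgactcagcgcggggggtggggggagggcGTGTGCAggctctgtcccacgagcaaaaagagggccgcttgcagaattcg
Mt1, chr8:94178839-94179088, plus strand: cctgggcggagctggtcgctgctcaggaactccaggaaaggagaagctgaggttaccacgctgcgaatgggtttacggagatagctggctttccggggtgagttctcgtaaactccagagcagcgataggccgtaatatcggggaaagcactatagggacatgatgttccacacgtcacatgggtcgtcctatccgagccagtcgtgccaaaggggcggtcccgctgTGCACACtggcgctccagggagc
The window held 1 match for Mt4, 0 for Mt3, 3 for Mt2 and 1 for Mt1. At least 1 match was found in 21.4% of the 32851 promoter windows of this length in the RefSeq table (GRCm38.p6), and in 18 of the 44 windows of the 36 members found there; matches that overlap on opposite strands were each counted. GENCODE also has Mt1 transcripts starting downstream of the RefSeq start, and sequence next to those starts was not searched.

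Mt4, a metallothionein of stratified squamous epithelium, was listed at 0 in normal colon and at 501 RPKM in the adenomas. A control level of 3 reads would be 0.255 RPKM, and Mt4 in the adenomas, with about 6611 reads, stood 1963-fold above that floor. The lower bound of the 95% counting interval of its ratio was 1596-fold. Mt3, best known from brain, was at 1.07 RPKM in normal colon (about 17 reads) and 271 RPKM in the adenomas (about 4827 reads). Its ratio was 254-fold (158 to 435), where the numbers in parentheses here and below are a 95% interval that covers counting error only. Both genes went from low or absent to among the more abundant mRNA: Mt3 stood at percentile 45.5 of the 22388 mRNA genes in normal colon and 98.7 in the adenomas, and Mt4 reached percentile 99.4. Mt2, one of the widely expressed forms, was at 46.4 RPKM in normal colon and 179 RPKM in the adenomas, 3.85-fold higher (3.54 to 4.18). Mt1, the other widely expressed form, was at 93.9 and 139 RPKM, 1.48-fold higher (1.41 to 1.55). Mt1's log2 difference of 0.56 became -0.24 after length adjustment, and Mt2's went from 1.92 to 0.88, below the 2-fold threshold. For Mt3 and Mt4 the adjusted values were 6.01 and 7.92.

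The makeup of metallothionein mRNA therefore differed between the libraries. The 4 genes summed to 141 RPKM in normal colon, of which Mt1 gave 66.4% and Mt2 32.8%. In the adenomas they summed to 1089 RPKM, of which Mt4 gave 46.0%, Mt3 24.9%, Mt2 16.4% and Mt1 12.7%. Mt1 stood 2.02-fold above Mt2 in normal colon and at 0.777 of it in the adenomas. Of the 3 coding genes on each side of the cluster, the nearest were Bbs2 at 2.84 and 2.97 RPKM and Nup93 at 9.14 and 7.44. Farther out Nudt21 was higher in the adenomas, at 4.45 and 12.1 RPKM, and Ogfod1, at 3.71 and 1.59, and Herpud1, at 89.3 and 48.0, were lower. Slc12a3 was at 0 and 0.0639.

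**Figure D3:**
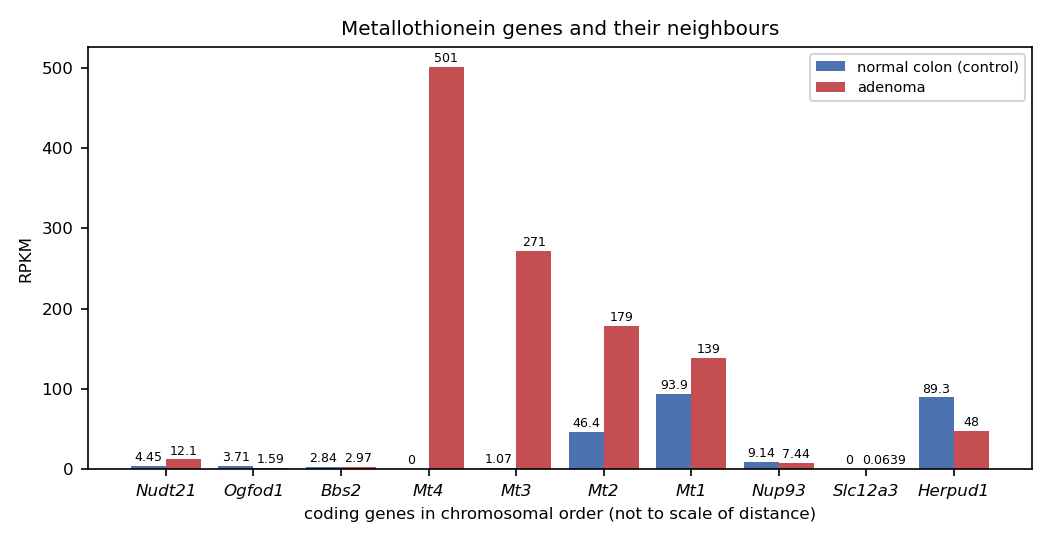
RPKM of the 4 metallothionein genes and the 3 coding genes on each side, in chromosomal order, in the normal colon and adenoma libraries (1 library each, bars start at 0, value above each bar). Mt4 and Mt3 have the tallest adenoma bars, 501 and 271 RPKM, beside 0 and 1.07 in normal colon; Bbs2 and Nup93 stay under 10 RPKM in both.

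Marker lists of cell types in which Mt3 and Mt4 are known were read beside these values. In bulk tissue, a difference in the number of cells of a type and a difference in RNA per cell cannot be told apart. Markers of stratified squamous keratinocytes, 14 genes, summed to 4.85 RPKM in normal colon and 30.3 in the adenomas. Of the 14, 11 had higher values in the adenomas, 0 lower and 3 were at 0 in both. The filter was passed by 4, of which 3 were beyond 2-fold upward (2 after length adjustment). Among mRNA genes 10.4% were beyond 2-fold upward (5.49% after length adjustment). That adenoma sum was made up mostly of Krt14 at 19.0 RPKM and Krt13 at 6.87. Krt4 went from 0.0159 to 1.24 RPKM, on 1 and 88 reads, and Krt6a from 0 to 0.752. The basal genes Krt5 and Trp63 were at 0.0619 and 0 RPKM in the adenomas, and Ivl, Lor and Krt1, genes of cornifying layers, were at 0, 0.263 and 0.0431. Markers of neurons and enteric glia, 10 genes, went from 21.4 to 14.9 RPKM in sum, with 2 higher values and 8 lower. Past the filter were 6 of them, 1 beyond 2-fold downward and 0 upward, beside 13.1% and 10.4% of mRNA genes. The part of either cell type in the metallothionein values was not tested.

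Among the SLC30A genes, which carry zinc out of the cytosol, Slc30a2 stood apart. This transporter loads zinc into secretory vesicles and granules, including those of Paneth cells. It was at 0.0409 RPKM in normal colon, about 4 reads for its longest transcript and between 1 and 2 for its shortest, and at 30.5 RPKM in the adenomas, about 3192 reads. The ratio was 747-fold, with an interval of 277 to 2610 for the longest transcript; with the reads of the shortest the lower bound was 198. The length-adjusted log2 value for the longest transcript, 3153 bases, was 5.04, close to the unadjusted 4.92. A shorter transcript, down to 1224 bases, would give a lower adjusted value. Slc30a2 moved from percentile 27.8 of mRNA genes to percentile 89.4. Of 12 Paneth cell markers 11 were higher in the adenomas, and their sum went from 52.5 to 1459 RPKM. The largest of them there were Lyz1 at 337 and Mmp7 at 328 RPKM. In normal colon the 7 alpha-defensin genes of the list were at 0, and in the adenomas they ranged from 1.93 to 237 RPKM. The part of such cells in the Slc30a2 value was not tested. Pancreatic acinar cells also express Slc30a2, and their 12 markers summed to 323 and 293 RPKM, nearly all of it Cela1 at 321 and 291. Of the 12, 4 had higher values in the adenomas (Pnlip, Prss2, Cpb1 and Cel, each under 1 RPKM), 2 had lower values and 6 were at 0 in both libraries, among them Prss1, Cpa1, Ctrb1 and Ptf1a. Their part in the Slc30a2 value was not tested.

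The other SLC30A genes were lower in the adenomas or not detected. Slc30a1, the zinc exporter of the plasma membrane, was at 3.58 RPKM in normal colon and 1.15 in the adenomas, 3.12-fold lower (2.65 to 3.68). Its log2 of -1.09 became -0.67 after length adjustment, inside the 2-fold threshold. Of the other textbook MTF1 targets, Mt2 was beyond 2-fold higher only before that adjustment and Mt1 by neither measure. Slc30a10, an exporter of manganese, was at 0.551 RPKM, about 95 reads, and 0.0103 RPKM, about 2 reads. Its ratio was 53.3-fold lower (14.4 to 447), although it did not pass the filter of 1 RPKM and so is in neither count. Slc30a4, of intracellular vesicles, was at 8.67 and 3.92 RPKM, 2.21-fold lower (2.02 to 2.42). The transporters of the early secretory pathway differed less: Slc30a5 was at 11.0 and 8.02 RPKM, Slc30a6 at 9.71 and 6.55, and Slc30a7 at 4.77 and 3.15. Slc30a9, a mitochondrial zinc exporter, was the most abundant of the family in normal colon at 14.5 RPKM, and was at 12.5 in the adenomas. Slc30a7 and Slc30a9 changed sign after length adjustment, to 0.14 and 0.27, and Slc30a9 also lay at 0.01 under median-ratio and trimmed-mean scaling. Slc30a3 and Slc30a8, the transporters of synaptic vesicles and insulin granules, were listed at 0 in both libraries. Past the filter were 7 SLC30A genes, with 1 beyond 2-fold in each direction, beside 10.4% of mRNA genes upward and 13.1% downward. The median log2 of the 7 was -0.47, or -0.29 length-adjusted.

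Among the SLC39A genes, which carry zinc into the cytosol, Slc39a8 was the 1 member at least 2-fold higher. ZIP8, its product, takes up zinc and manganese at the cell surface. It was at 5.70 RPKM in normal colon and 19.3 in the adenomas, 3.39-fold higher (3.09 to 3.71), and its log2 after length adjustment was 1.77. Its close relative Slc39a14, which takes up zinc, manganese and iron, went the other way, at 7.85 and 3.17 RPKM, 2.48-fold lower (2.23 to 2.75). The Golgi transporter Slc39a9 was at 22.0 and 7.18 RPKM, 3.07-fold lower (2.88 to 3.27). Slc39a5, found at the basolateral membrane of intestinal epithelium, was at 30.8 and 13.1 RPKM, 2.36-fold lower (2.17 to 2.56). By contrast Slc39a4, the dietary zinc importer of the apical membrane, was at 60.4 and 50.1 RPKM, 1.21-fold lower (1.16 to 1.26). The ratio of Slc39a4 to Slc39a5 was thus 1.96 in normal colon and 3.84 in the adenomas.

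The most abundant SLC39A gene of normal colon was Slc39a7, which releases zinc from the endoplasmic reticulum and Golgi. It was at 65.5 RPKM in normal colon and 48.9 in the adenomas. Slc39a11, also intracellular, was at 34.2 and 20.5 RPKM, and Slc39a3, of the plasma membrane, at 7.91 and 6.21. For 4 members of the family the values of the libraries were close: Slc39a1 was at 42.1 and 43.7 RPKM, Slc39a10 at 2.23 and 2.61, Slc39a13 at 4.17 and 4.63, and Slc39a6 at 1.83 and 2.05. These 4 were slightly higher as deposited and slightly lower with equal sums of RPKM, and Slc39a1 also after length adjustment. The row of the pseudogene Slc39a1-ps, of type ncRNA and outside the members, was at 10.8 and 12.3 RPKM, so the reads of Slc39a1 may be shared with it. Slc39a2 was at 0.101 and 0.271 RPKM, on about 7 and 21 reads, and Slc39a12 at 0.0126 and 0.0113, on 1 read each. Past the filter were 12 genes, with 1 beyond 2-fold upward and 3 downward, beside 10.4% and 13.1% of mRNA genes. The median of the 12 was -0.29, or -0.19 length-adjusted. The summed level of the 14 genes was 285 RPKM in normal colon and 222 in the adenomas, while that of the 10 SLC30A genes was 52.8 and 65.9, of which Slc30a2 gave 30.5 in the adenomas.

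Mtf1, the transcription factor that responds to zinc, was at 3.92 RPKM in normal colon and 1.66 in the adenomas. The ratio was 2.35-fold lower (2.09 to 2.65), but on the log2 scale with 1 RPKM added it was -0.88, short of the threshold, and -0.29 after length adjustment. Of 8 other zinc-handling genes measured, 6 passed the filter, 3 exceeded 2-fold upward and 0 downward, beside 10.4% and 13.1% of mRNA genes. S100a9 and S100a8, the subunits of calprotectin, which binds zinc and manganese outside cells and is abundant in neutrophils, were at 0.693 and 0.777 RPKM in normal colon and 175 and 120 in the adenomas. Albumin, Alb, which carries zinc in plasma, was at 1.23 and 6.11 RPKM.

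**Figure D4:**
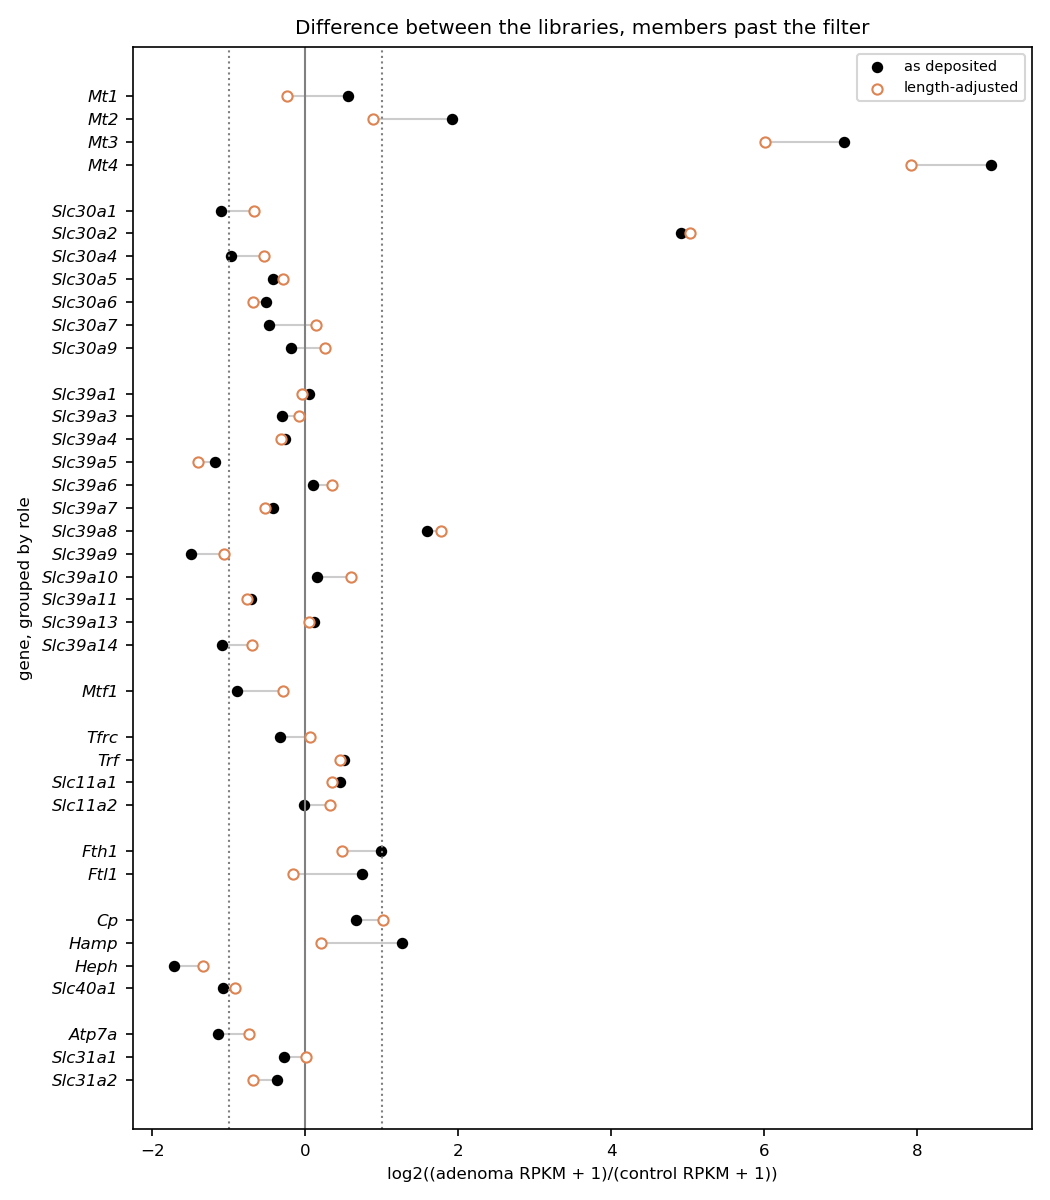
Difference between the libraries for the 37 members past the filter, as log2((adenoma RPKM + 1)/(control RPKM + 1)), as deposited (black) and after length adjustment (open), 1 point per gene, grouped by role; dotted lines mark 2-fold. Mt4 (8.97 and 7.92), Mt3 and Slc30a2 lie far to the right by both measures. The adjustment brings Mt2, Hamp, Atp7a, Slc30a1, Slc39a14 and Slc40a1 inside the 2-fold lines and Cp outside them.

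Among the iron genes Heph and Slc40a1 were beyond 2-fold lower in the adenomas and Hamp beyond 2-fold higher. Both ferritin subunits had higher values within 2-fold, and the 5 uptake genes had 2 higher and 3 lower values. The iron-responsive elements of these mRNAs are shown because they tie storage, export and uptake to 1 switch. The search was for a C, 5 bases, the loop CAGTGN and 5 bases that pair with the first 5. Capitals mark the loop. A hairpin with an unpaired or mismatched base among the 5 pairs would be missed. Members without a match, Slc11a2 among them, may therefore still carry an element, and Tfrc may carry more copies than were matched. Of 21877 coding genes in GENCODE M21 (GRCm38), 0.142% had such a hairpin in the 5′ UTR and 0.590% in the 3′ UTR. Among the members 3 had it in the 5′ UTR (Fth1, Ftl1 and Slc40a1) and Tfrc had 4 copies in the 3′ UTR, of which the first is shown.
Fth1, chr19:9982738-9982754, plus strand: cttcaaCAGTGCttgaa
Ftl1, chr7:45459785-45459801, minus strand: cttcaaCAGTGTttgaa
Slc40a1, chr1:45925471-45925487, minus strand: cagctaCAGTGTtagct
Tfrc, chr16:32631225-32631241, plus strand: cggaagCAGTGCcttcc
The match describes letters only and is no measure of binding or of translation, which RNA levels do not show.

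Fth1, the ferritin heavy chain that oxidises iron for storage, was the most abundant member in both libraries, at 1408 RPKM in normal colon and 2811 in the adenomas, 1.997-fold higher (1.978 to 2.016). Its log2 value was 0.49 after length adjustment. Ftl1, the light chain, was at 361 and 607 RPKM, 1.68-fold higher (1.64 to 1.72), and became -0.15 after length adjustment. The ratio of Fth1 to Ftl1 was 3.90 in normal colon and 4.63 in the adenomas. Ferritin genes have processed copies in the genome, and the row Ftl2, of type ncRNA, was at 97.8 and 160 RPKM, so reads may be divided among copies and the ferritin values are uncertain to that extent.

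The 4 iron uptake genes past the filter differed by less than 2-fold. Tfrc, the transferrin receptor, was at 24.7 RPKM in normal colon and 19.4 in the adenomas, 1.27-fold lower (1.21 to 1.33), and at 0.06 on the log2 scale after length adjustment. Fth1 stood 57.0-fold above Tfrc in normal colon and 145-fold above it in the adenomas. Slc11a2, which encodes DMT1, the importer of ferrous iron, was at 8.36 and 8.29 RPKM, a ratio of 0.992 (0.914 to 1.08), the closest pair of values among the members past the filter. Its log2 of -0.01 became 0.18 under median-ratio and trimmed-mean scaling, 0.02 under upper-quartile scaling and 0.32 after length adjustment. Slc11a1, which pumps metals out of phagosomes in macrophages and neutrophils, was at 2.64 and 4.01 RPKM, 1.52-fold higher (1.26 to 1.83). Macrophage markers, 12 genes, summed to 386 and 598 RPKM, with 7 higher and 5 lower, among them Csf1r at 18.1 and 11.4. Neutrophil markers, 10 genes, summed to 115 and 390 RPKM, with 7 higher and 3 lower. The filter was passed by 4, of which 3 (S100a8, S100a9 and Retnlg) were beyond 2-fold upward, beside 10.4% of mRNA genes. Ly6g gave 112.5 of the sum in normal colon. The part of either cell type in the Slc11a1 value was not tested. Trf, transferrin, was at 48.0 and 68.9 RPKM, 1.436-fold higher (1.377 to 1.497). Cybrd1, the ferric reductase of the duodenal brush border, was under the filter at 0.637 and 0.292 RPKM, on about 100 and 52 reads, 2.18-fold lower (1.53 to 3.08). The 4 uptake genes past the filter had a median of 0.22, which became -0.12 with equal sums and -0.01 without the filter.

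Slc40a1, which encodes ferroportin, the exporter of iron from cells, was at 33.1 RPKM in normal colon and 15.1 in the adenomas, 2.18-fold lower (2.06 to 2.32), and at -0.91 after length adjustment. Heph, the membrane ferroxidase that works with ferroportin in enterocytes, was at 22.9 and 6.29 RPKM, 3.64-fold lower (3.39 to 3.91), and at -1.33 after length adjustment. The soluble ferroxidase ceruloplasmin, Cp, was at 1.99 and 3.72 RPKM, 1.87-fold higher (1.62 to 2.17), with log2 values of 0.66 and, length-adjusted, 1.02. Heph and Cp, related multicopper oxidases, thus differed in opposite directions. Hamp, which encodes hepcidin, a hormone made mainly in liver, was at 0.0857 RPKM on 1 read and 1.60 RPKM on about 22 reads, 18.7-fold higher (3.17 to 809). Its log2 was 1.26, or 0.21 after length adjustment, and it has a close copy, Hamp2, at 2.25 and 1.59 RPKM, so the assignment of its few reads is uncertain. Hepatocyte markers, 7 genes, summed to 35.3 and 37.6 RPKM, of which Ttr gave 34.0 and 31.3. Alb, on the same list, was 4.98-fold higher in the adenomas, and its part in the Hamp value was not tested. Absorptive colonocyte markers, 8 genes, were lower in 7 cases and summed to 2565 and 629 RPKM. Goblet cell markers, 10 genes, were lower in 9 cases and summed to 10477 and 5353 RPKM. Smooth muscle markers, 7 genes, were all lower and summed to 1602 and 1187 RPKM. Among the members, Heph, Slc40a1 and Slc39a5 were beyond 2-fold lower, Slc39a4 was 1.21-fold lower and Slc11a2 was at 8.36 and 8.29 RPKM. The part of these cell types in the members' values was not tested.

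Of 37 other iron-handling genes found, 31 passed the filter. Of these 5 exceeded 2-fold upward and 6 downward, beside 10.4% and 13.1% of mRNA genes. The median of the 31 was -0.17 (-0.16 length-adjusted), equal as deposited to that of mRNA genes to 2 decimals. Lcn2, lipocalin 2, which binds bacterial siderophores, was at 4.92 RPKM in normal colon and 163 in the adenomas. Hp, haptoglobin, which binds free haemoglobin, was at 0.805 and 35.6 RPKM. Blvrb, a biliverdin reductase, was at 40.0 and 183 RPKM. Pcbp1, an iron chaperone and the most abundant gene of the list, was at 178 and 198 RPKM. Haemoglobin genes also differed: 7 erythroid markers summed to 112 and 335 RPKM, with Hbb-b1 at 43.8 and 146. After length adjustment no erythroid marker with a matched length was beyond 2-fold, Hba-a1 going from a log2 of 1.58 to 0.57 and Hba-a2 from 1.32 to 0.29; Hbb-b1 had no matched length and no adjusted value. Slc4a1, the anion exchanger of the red cell membrane, was under 1 RPKM in both libraries.

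The 4 copper transport members had lower values in the adenomas, 1 of the 3 past the filter beyond 2-fold and none after length adjustment. Of 12 other copper-handling genes 10 had higher values and 2 lower as deposited, but length adjustment turned their median negative. Among all mRNA genes 7615 had higher values in the adenomas and 10402 lower. Atp7a, the pump that delivers copper to the Golgi and exports it, was at 4.48 RPKM in normal colon and 1.49 in the adenomas, 2.99-fold lower (2.58 to 3.48), with log2 values of -1.13 and, length-adjusted, -0.74. Slc31a1, the main importer of copper at the cell surface, was the most abundant of the 4 at 39.0 and 32.0 RPKM, 1.22-fold lower (1.17 to 1.27). Its log2 of -0.28 became 0.01 after length adjustment. Slc31a2, a related protein of internal membranes, was at 9.46 and 7.14 RPKM, 1.33-fold lower (1.16 to 1.51). Atp7b, the copper pump best known from liver, was under the filter at 0.417 and 0.122 RPKM, on about 80 and 26 reads, 3.43-fold lower (2.20 to 5.60). Among 12 other copper-handling genes 2 exceeded 2-fold upward and 0 downward, beside 10.4% and 13.1% of mRNA genes. The median of the 12 was 0.48, or -0.31 after length adjustment. The 2 were the chaperone Atox1, which hands copper to Atp7a and Atp7b, at 125 and 294 RPKM, and Commd1, a regulator of copper export, at 79.6 and 199. Cox17, the chaperone for cytochrome oxidase, was at 72.2 and 145 RPKM. The abundant Slc25a3, the mitochondrial phosphate and copper carrier, was at 280 and 282 RPKM, and the copper enzyme Sod1 at 202 and 347. Atox1's log2 of 1.23 became 0.20 after length adjustment, and Commd1's went from 1.31 to 1.66. The adjustment used the longest coding transcript, 541 bases for Atox1 and 4508 for Commd1. A shorter expressed transcript would give Commd1 a lower adjusted value.

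**Figure D5:**
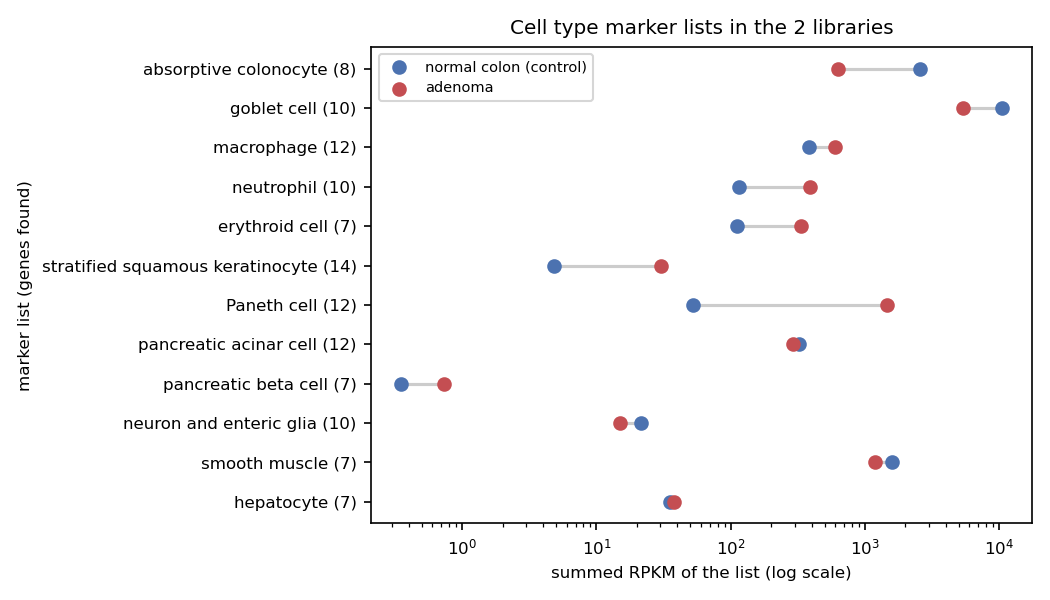
Summed RPKM of 12 cell type marker lists in the normal colon and adenoma libraries, 1 library each, on a log axis; the number of genes found is in parentheses. Paneth cell markers go from 52.5 to 1459 RPKM and absorptive colonocyte markers from 2565 to 629.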

How the data were processed

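RNA was measured in 2 pooled libraries. The authors deposited 1 table of RPKM values, with a column for each library, per the file headers. Per the submitters' processing notes the build was GRCh37, a human assembly, although the symbols are those of mouse; the aligner, counter and annotation are not given in the sources used here, and the labels name both a Proton and an Illumina process. The members, roles and lists were chosen with earlier results of these data known. All 44 members are named; from each other pathway list the 3 genes with the largest absolute log2 value and the most abundant were named.

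Read totals, 29548883 for normal colon and 33174626 for the adenomas, were recovered from microRNA and snoRNA genes of known length, of which 70.9% and 72.0% then held reads within 0.01 of a whole number. Reads per gene used the longest coding GENCODE M21 transcript and are approximate, and too high where the authors' length was shorter. The counting intervals are then too narrow. For Tfrc the interval of the adenoma to control ratio was 0.750 to 0.826 with the longest coding transcript. With its shortest, 166 bases, the interval was 0.602 to 1.03. Clopper-Pearson 95% intervals and the floor of 3 reads cover counting error only, not differences between mice. The length adjustment interpolated the median log2 over 20 bins of the longest coding length. It subtracted that trend and added back the overall median of the mRNA genes past the filter with a matched length. Adjusted values are too high where the authors' length was shorter. Only the log2 difference and the counting intervals were tested on simulated reads. The read totals, the filter, the scalings, the length adjustment and the sequence searches were not tested in that way. Versions were Python 3.11.15, numpy 2.4.6, pandas 2.3.3 and scipy 1.17.1.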

Additional observations from a re-analysis of the deposited data

How the results depend on the processing

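Each group holds 1 library, so differences between mice and between library preparations cannot be separated from the contrast of adenomas with normal colon. The adenomas came from treated mice and the normal colon from untreated mice, so treatment and tissue cannot be told apart either. Genes with few reads (Hamp, Slc30a2, Slc30a10 and Mt3 in at least 1 library) carry wide counting intervals. No paired analysis was possible because each group has 1 pooled library. The 13 members past 2-fold kept their sign under the 7 alternatives of pseudocount, scaling and length adjustment, and 6 of them (Mt3, Mt4, Slc30a2, Slc39a8, Heph and Slc39a9) stayed past 2-fold under all 7. The members at least 2-fold higher numbered 6, and 3 at a 4-fold threshold. The members at least 2-fold lower numbered 7, against 2 with a pseudocount of 5, 3 with median-ratio scaling, 3 with a trimmed mean of log ratios, 3 after length adjustment and 0 at 4-fold. Among all mRNA genes 1346 were higher, against 771 with a pseudocount of 5, 721 with equal sums, 698 after length adjustment, 2519 at 1.5-fold and 235 at 4-fold. Lower mRNA genes numbered 1693, against 2628 with a pseudocount of 0.1, 624 with a pseudocount of 5, 2961 with equal sums, 3767 at 1.5-fold and 166 at 4-fold. Median-ratio scaling gave 1798 higher and 1215 lower mRNA genes. The causes of these shifts in count were not tested.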
